A study of Mus musculus with 20 samples.

Results

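Cytosolic ribosomal protein genes were read across 20 Affymetrix arrays of mouse lens RNA. The members are every gene whose symbol is Rpl or Rps plus a number, with an optional a or x, together with Rplp0, Rplp1, Rplp2 and Rpsa, where the array has a probe set annotated to that gene alone. S6 kinases, Rps27l and other like-named paralogs, and pseudogenes are not members. The rule found 42 genes out of 18193 with a single-gene probe set, 22 of the large subunit and 20 of the small subunit. Each gene is represented by the probe set with the highest mean signal over the 20 arrays. Of the 42, 41 passed the filter on dim genes and were tested. Rps16, a small subunit protein, was not: its only single-gene probe set averaged 2.62 on the log2 scale and lay at the 7.26th percentile of its arrays.

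The cytosolic ribosome is built from ribosomal RNA and a fixed set of proteins, which are made in near equal amounts and are needed by every growing cell. Their mRNAs are among the most abundant in the cell, and most begin with a pyrimidine tract, the terminal oligopyrimidine or TOP motif, through which mTOR signalling controls how well they are translated. Lens epithelial cells divide, leave the cell cycle and become fibre cells, which fill with crystallins and then lose their organelles and ribosomes. E2F1, E2F2 and E2F3 are transcription factors that drive genes of the cell cycle, and some ribosomal proteins restrain the p53 inhibitor Mdm2 when ribosome assembly is disturbed.

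RefSeq promoter windows of the GRCm38.p6 build, running from 250 bases before the annotated start to 50 after it, were found for 37 of the 42 members. Windows of 6 genes are shown, cut to the 40 bases before and the 20 after the start on the transcribed strand, for the genes whose values carry the results and for Rps6, whose start has the classical form. Capitals mark the longest run of C and T within the interval from 10 bases before to 20 after the start. A run that crosses an edge counts only for its part inside. Rpl27 has no such run of 6 or more bases.
Rpl12 (chr2:32961672-32961731, plus strand): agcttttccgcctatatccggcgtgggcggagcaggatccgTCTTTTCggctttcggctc
Rpl14 (chr9:120571477-120571536, plus strand): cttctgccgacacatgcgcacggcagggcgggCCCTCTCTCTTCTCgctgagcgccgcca
Rpl13a (chr7:45128726-45128785, minus strand): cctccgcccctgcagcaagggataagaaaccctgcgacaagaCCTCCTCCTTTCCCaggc
Rps9 (chr7:3704001-3704060, plus strand): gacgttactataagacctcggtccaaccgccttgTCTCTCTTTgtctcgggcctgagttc
Rpl27 (chr11:101442205-101442264, plus strand): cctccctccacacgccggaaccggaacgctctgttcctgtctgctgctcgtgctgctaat
Rps6 (chr4:86857348-86857407, minus strand): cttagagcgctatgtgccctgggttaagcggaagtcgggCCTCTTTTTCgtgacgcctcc

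A run of 6 or more pyrimidines near the start was present in 24 of the 37 members (64.9%) and in 32.1% of the 27025 genes with a window. A C at the annotated start itself followed by at least 4 pyrimidines, the strict TOP form, was present in 8 members (21.6%) and in 3.01% of all genes, Rpl14 and Rps6 among the 8. The other motifs were searched on both strands of the 300-base window. CCGGAAG, the core bound by ETS family factors, occurred in 18 members (48.6%) and in 9.93% of all genes. AAGATGGC, the YY1 core, occurred in 3 members (8.11%) against 3.19% of all genes, and TATAAA in 5 members (13.5%) against 15.7%. An E2F site in either of its strict forms, TTTCGCGC or TTTGGCGC, occurred in 1 member, Rpsa (2.7%), and in 0.929% of all genes. These are matches of letters in one annotated window, and annotated starts can lie some bases from the start used in the lens.

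The triple knockout lenses, called TKO, have the genotype Cry-Cre, E2F1-/-, E2F2-/-, E2F3f/f, in which the Cry-Cre transgene removes E2F3 in the lens. The control lenses are E2F2-/-, so both groups lack E2F2, and only the TKO lenses carry Cre. Embryos (E17.5) and newborns (P0) of each genotype were sampled, 5 arrays to a group, and a sample holds both lenses of 1 mouse. The study asked what leads to the collapse of the lens in newborn TKO mice. The RNA was hybridised in 1 colour after labelling of 2 ug, and the values are the authors' log2 signals. The labels give the cells as epithelial, but markers of fibre cells were present too: Mip, the fibre cell aquaporin, averaged 13.34 in TKO and 13.32 in control lenses at E17.5. All 16 lens markers measured were above the array median on every array. A lower level in such bulk tissue can come from fewer cells of a type or from less RNA per cell, and these cannot be told apart.

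Array medians lay between 5.05 and 5.25 on the log2 scale. Of 3 E2f1 probe sets the 2 brighter ones read higher in TKO lenses without overlap at both stages, the first at 7.62 to 7.91 in TKO against 7.15 to 7.52 in control lenses at P0. The third, below the array median, overlapped between the genotypes. Both E2f2 probe sets overlapped at both stages. Of the E2f3 probe sets one read 5.60 to 5.72 in TKO and 5.42 to 5.59 in control lenses at P0 and overlapped at E17.5, and the other overlapped at both stages. Where these probes lie relative to the deleted parts was not given, so they do not check the labels. TKO arrays at E17.5 were the least alike. Replicates 24 and 27 correlated more with the E17.5 controls (0.985 and 0.990) than with their own group (0.969 and 0.972), and replicate 28 had the lowest correlation with its own group, 0.955. Of the 41 tested members, 32 had their highest TKO E17.5 value on replicate 28. Its tissue markers differed too. Endothelium markers averaged 8.59 on replicate 28 and 6.61 to 7.06 on the other TKO E17.5 arrays. Macrophage markers averaged 7.25 against 5.49 to 6.19, red blood cell markers 5.76 against 4.66 to 5.03, and lens markers 12.84 against 13.11 to 13.26. The part of these differences in the member values of replicate 28 was not tested. At P0, retina markers averaged 6.61 to 7.58 in TKO and 4.77 to 6.27 in control lenses. Macrophage markers were called higher in TKO lenses in 5 of 9, with a median difference of 0.918. Pigment cell markers averaged 7.19 to 7.80 in TKO and 6.21 to 6.55 in control lenses, and the log2 difference between the 5' and 3' Gapdh control probes was 0.15 to 0.19 in TKO and -0.05 to 0.06 in control lenses.

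The ribosomal protein probe sets sat near the top of the arrays. In 33 of the 42 genes the probe set averaged above 12 on the log2 scale, between 12.71 and 14.48, at or above the 99.4th percentile of its arrays. Another 5 genes averaged between 8 and 12 and 4 were at 8 or below. Rpl41, Rps29, Rpl37a and Rps28 had the brightest probe sets and Rps16, Rps27, Rpl12 and Rpl39 the dimmest. Probe sets differ in how well they bind, so this order is one of probe signals and not of transcript amounts. The spread among the members was small: their median SD over 5 arrays was 0.0993 in TKO and 0.0281 in control lenses at E17.5, and 0.0403 in TKO and 0.0318 in control lenses at P0. Over all 11859 tested genes the median SD was 0.204 in TKO and 0.0963 in control lenses at E17.5, and 0.150 in TKO and 0.103 in control lenses at P0. These spreads are not matched for signal. Between genotypes at E17.5 the median absolute difference was 0.041 in the 33 bright members, 0.09 in the 156 other tested genes above 12 and 0.145 in all tested genes, and whether signals this high on the array are compressed was not tested. Rpl12, which forms the base of the ribosomal stalk, was the most variable member in all 4 groups.

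**Figure D1:**
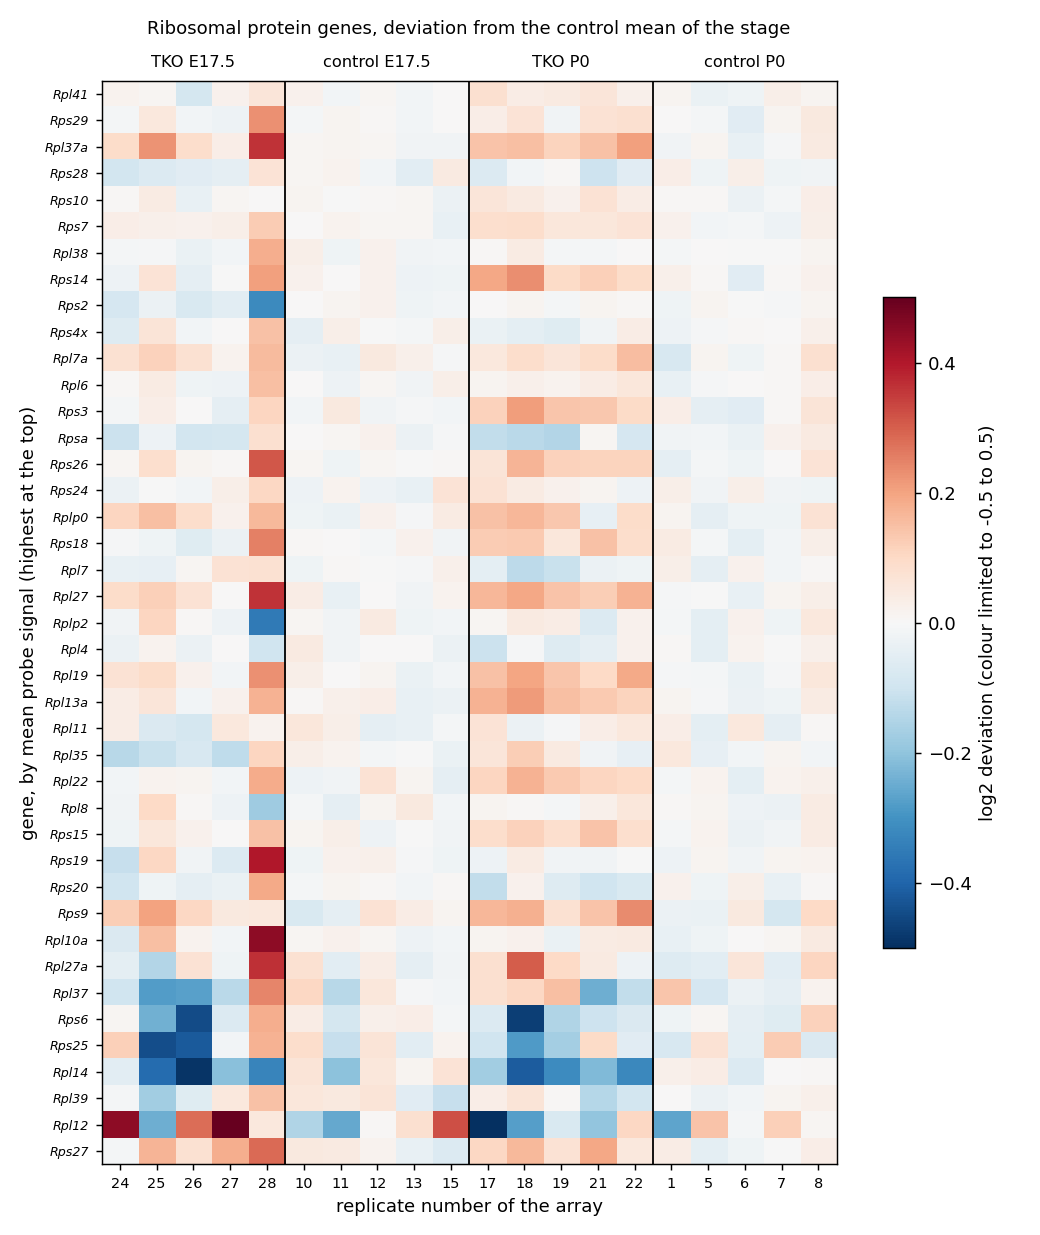
Deviation of each of the 41 tested ribosomal protein genes from the mean of the 5 control arrays of the same stage, on the log2 scale, by array (columns, with replicate numbers) and gene (rows, brightest probe set at the top). TKO E17.5 replicate 28 is the reddest column, with the highest TKO E17.5 value of 32 genes, and Rpl14 is blue on all 5 TKO arrays at both stages.

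At E17.5 no ribosomal protein gene passed the test between TKO and control lenses. Of 41 members 0 were called higher and 0 lower (limma, Benjamini-Hochberg adjusted p below 0.05 over 11859 genes), where 2.89% of all tested genes were called, 1.59% higher and 1.31% lower. That split depended on scaling, with 1.75% higher and 3.15% lower after quantile normalisation and 1.26% higher and 0.405% lower after median centring. At an unadjusted p below 0.05 there were 2 members, 1 higher and 1 lower, against 1233 higher and 1808 lower among the 11859 tested genes. Fits with array weights or with a variance trend and robust moderation also called 0, and a fit that pools the spread of all 20 arrays called 1, Rpl14. The median difference, TKO minus control, was 0.027 over the members and -0.029 over all tested genes, and single members ran from -0.29 to 0.22. For the 33 bright members the 95% intervals of the difference stayed between -0.26 (Rps2) and 0.32 (Rpl37a).

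The 4 members of smallest p at E17.5 were Rpl14, Rpl37a, Rps27 and Rplp0. Rpl14, a protein of the large subunit, read 8.64, 8.30, 8.20, 8.48 and 8.36 in TKO lenses, against 8.75, 8.48, 8.75, 8.70 and 8.76 in control lenses. In TKO lenses 4 arrays lay below all controls, replicate 27 by less than the decimals shown, and replicate 24 lay within the control range. The difference was -0.29 ± 0.09 (SE, n = 5 each, limma adjusted p = 0.0959). Rpl37a, a small zinc-binding protein of the large subunit, read 13.86, 14.00, 13.86, 13.81 and 14.14 in TKO lenses, against 13.79, 13.79, 13.78, 13.76 and 13.76 in control lenses. All 5 TKO values lay above all 5 controls, with a difference of 0.16 ± 0.07 (limma adjusted p = 0.191). Without TKO replicate 28 the Rpl37a difference was 0.11. In all 2 members were higher without overlap and 1, Rps2, was lower, against 4% and 5.95% of all tested genes. Rps27 differed by 0.14 (limma adjusted p = 0.222) and Rplp0, which anchors the stalk that recruits elongation factors, by 0.11 (limma adjusted p = 0.252).

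At P0 the picture was of small shifts. In TKO lenses 8 members were higher and 1 was lower than in controls, 22% of the 41, where 39.6% of all tested genes were called, 20.2% higher and 19.4% lower. The share of members called higher is thus close to that of all genes, and 1 of 41 called lower is under it. No called member differed by more than 1.12-fold upward, or was below 0.818 of the control level. The members' median difference was 0.031 and that of all tested genes -0.006, and single members ran from -0.29 to 0.16. The 8 higher genes were all among the 33 bright members, while of the 156 other tested genes above 12 on the log2 scale 33 were called higher and 29 lower.

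Rpl14, read by 1 single-gene probe set with a mean signal of 8.39, was the member called lower. It read 8.20, 7.96, 8.06, 8.15 and 8.05 in TKO lenses, against 8.40, 8.41, 8.30, 8.37 and 8.38 in control lenses. Every TKO value lay below every control value, and the difference was -0.29 ± 0.06 (SE, n = 5 each, limma adjusted p = 0.00298), the same size as at E17.5. It is 1 of 2 members lower without overlap, against 12.7% of all tested genes. The other, Rps6, is the small subunit protein phosphorylated by S6 kinases: it read 10.15, 9.75, 10.07, 10.12 and 10.15 in TKO lenses and 10.20, 10.23, 10.17, 10.16 and 10.34 in control lenses, a difference of -0.17 that did not pass the test (limma adjusted p = 0.113).

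The 8 members that rose were Rps9, Rpl27, Rpl13a, Rpl19, Rpl37a, Rps14, Rps3 and Rpl22, with differences of 0.12 to 0.16 and limma adjusted p-values of 0.0152 to 0.0474. Rpl27, a large subunit protein, read 13.42, 13.44, 13.39, 13.37 and 13.42 in TKO lenses, against 13.25, 13.25, 13.22, 13.26 and 13.28 in control lenses, with no overlap and a difference of 0.16 ± 0.04. Rpl13a, which in human cells can leave the ribosome to repress translation of inflammatory mRNAs, read 13.32, 13.36, 13.30, 13.28 and 13.26 in TKO lenses. Its control values were 13.16, 13.14, 13.11, 13.12 and 13.19, again below every TKO value (difference 0.16 ± 0.05, limma adjusted p = 0.0203). Rps9, at the mRNA entry channel of the small subunit, read 12.80, 12.81, 12.71, 12.78 and 12.87 in TKO lenses, against 12.61, 12.60, 12.68, 12.55 and 12.73 in control lenses. Its groups overlapped, TKO replicate 19 lying below control replicate 8, and the difference was 0.16 ± 0.05 (limma adjusted p = 0.0386). In all, 11 members were higher without overlap, against 13.2% of all tested genes.

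**Figure D2:**
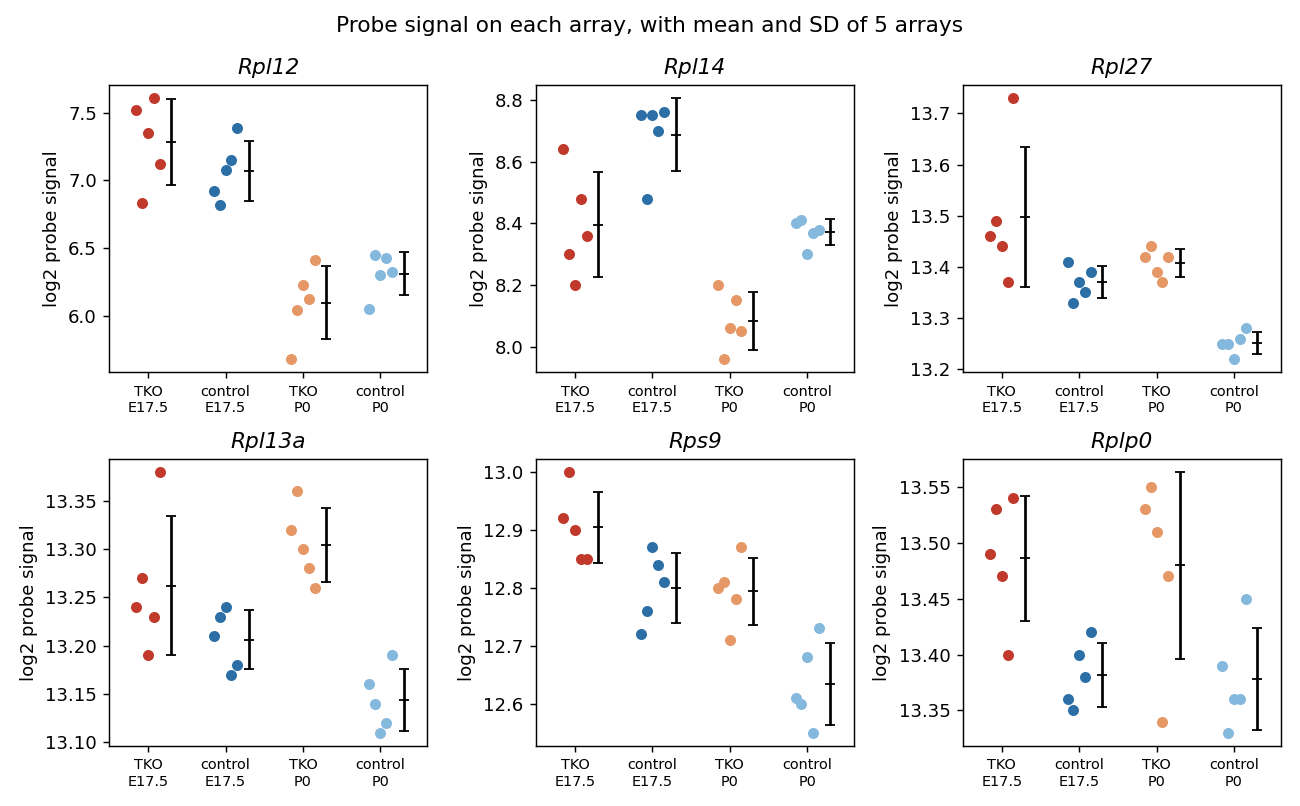
Log2 probe signal of 6 ribosomal protein genes on each of the 20 arrays (points), with the mean and SD of the 5 arrays of a group beside them. The vertical scale differs between panels: Rpl12 runs from 5.68 to 7.61 and Rplp0 from 13.33 to 13.55.

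Leaving out 1 array moved these differences little, with Rps9 between 0.14 and 0.18 and Rpl22 between 0.11 and 0.13, but many calls lay close to the threshold. Rpl14 and Rpl27 were called at P0 in all 10 fits that leave out 1 array, Rpl13a in 9, Rpl37a in 8, Rpl19 in 7, Rps9 and Rps14 in 3, Rps3 in 2 and Rpl22 in 1. The number of members called was 2 without control replicate 7, 3 without control replicate 6 and 4 without control replicate 5. It was 5 without control replicate 1, TKO replicate 17 or TKO replicate 18. These fits called 31% to 35.9% of all tested genes. With the retina marker mean as a covariate 0 of the 41 members were called, in a fit that called 345 of all genes. In that fit 2 members and 2821 of all genes had an unadjusted p below 0.05. Rpl27 and Rpl14 then differed by 0.20 and -0.28 (limma adjusted p = 0.196 and 0.158). The genotypes did not overlap in the retina marker mean at P0, so this fit cannot separate it from genotype. The part that retina, pigment cell or 5' to 3' signal differences play in the P0 shifts was not tested further.

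Rpl11, Rps19, Rplp2, Rpsa and Rplp0 did not pass the test in TKO against control lenses at either stage. Rpl11, which with Rpl5 binds Mdm2, differed by -0.01 in E17.5 lenses and by 0.02 at birth. Rps19, the gene most often mutated in Diamond-Blackfan anaemia, differed by 0.06 at E17.5, where TKO replicate 28 read 13.31 and no other array above 13.01, and by 0.00 at P0. Rplp2, an acidic stalk protein, differed by -0.06 at E17.5 and 0.01 at P0. Rpsa, also called the laminin receptor precursor, differed by -0.05 in E17.5 lenses and by -0.10 in P0 lenses, where its 95% interval ran from -0.21 to 0.01. Rplp0 differed by 0.10 at P0 (limma adjusted p = 0.175), with 4 of 5 TKO arrays above every control. Rplp1, Rpl5 and Rpl10 had no single-gene probe set and were not analysed here.

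Rpl22 showed that probe sets of a gene need not move together. The probe set that represents it read 13.15, 13.21, 13.17, 13.15 and 13.14 in TKO lenses and 13.03, 13.05, 12.99, 13.05 and 13.06 in control lenses at P0. When all 94 single-gene probe sets of the members were considered one by one, 85 were bright enough to test, and 8 were called higher and 2 lower at P0, where 38.9% of 20702 probe sets were called, 20.2% higher and 18.8% lower. In that fit 2 dimmer probe sets of Rpl22 were called in opposite directions, 0.25 ± 0.06 (limma adjusted p = 0.00669) and -0.19 ± 0.07 (limma adjusted p = 0.045), and the brightest was not called (limma adjusted p = 0.062). Rps9 had 2 further probe sets that did not pass, with differences of 0.94 ± 0.43 and -0.17 ± 0.12 (limma adjusted p = 0.107 and 0.305). The one at -0.17 represents the gene when suffixed probe sets are left out, and Rps9 was called in 7 of 21 alternative settings. Rps3 turned sign in the same way, to -0.09, and was called in 6 of 21. Of the probe sets that represent the members, 29 carry a suffix for probes shared by several transcripts and 13 do not. A further 110 probe sets list a ribosomal protein symbol together with other genes. They were looked at after the results were known, and 102 of them were tested: 7 were higher and 3 lower at P0. In that fit 38.8% of 20804 probe sets were called, 20.1% higher and 18.7% lower.

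**Figure D3:**
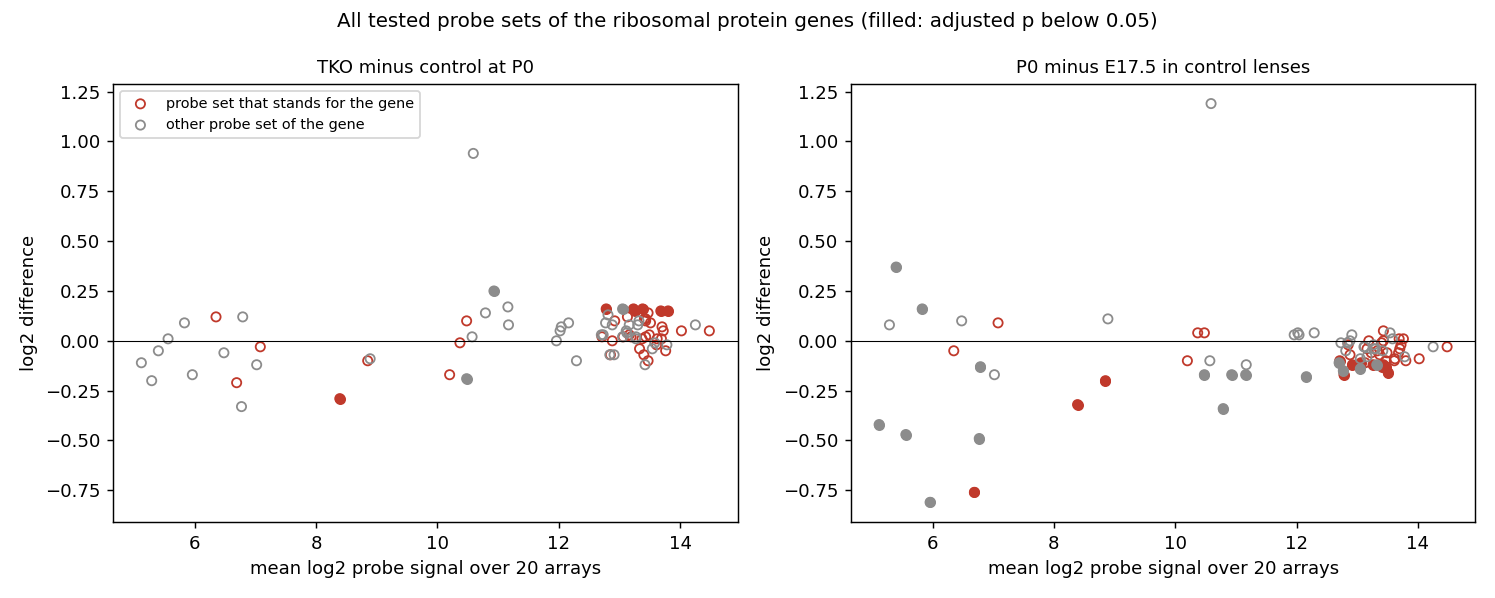
Log2 difference of each tested single-gene probe set of the ribosomal protein genes against its mean log2 probe signal over 20 arrays, for TKO minus control at P0 (left) and P0 minus E17.5 in control lenses (right). Red circles represent the gene, grey circles are its other probe sets, and filled circles had an adjusted p below 0.05. Probe sets with a mean above 12 lie close to 0.

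In control lenses 16 of the 41 ribosomal protein genes fell towards birth, by small amounts in most, and 25 did not pass the test. At P0 16 members were lower than at E17.5 and 0 were higher, 39% of the 41, where 24.9% of all tested genes were called lower and 12.5% higher (37.4% in all). At an unadjusted p below 0.05 the counts were 19 lower and 0 higher, against 3567 lower and 2000 higher among the 11859 tested genes. In 34 of the 41 members the difference was below 0, its median was -0.072 against -0.037 over all tested genes, and it ran from -0.76 to 0.09. In all, 20 members were lower without overlap, against 17.2% of all tested genes, and 0 were higher without overlap, against 7.78%. Both subunits took part, with 9 of 22 large and 7 of 19 small subunit members called lower.

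Rpl12, read by 1 single-gene probe set with a mean signal of 6.69, fell most in control lenses. It read 6.05, 6.45, 6.30, 6.43 and 6.32 at P0, against 6.92, 6.82, 7.08, 7.15 and 7.39 at E17.5. The stages did not overlap, and the difference was -0.76 ± 0.11 (SE, n = 5 each, limma adjusted p = 0.000503), or 0.59 of the E17.5 level. Rpl14 followed at -0.32 ± 0.06 (limma adjusted p = 0.00168), its P0 values of 8.30 to 8.41 all below its E17.5 values of 8.48 to 8.76. Rps25, a small subunit protein used by some viral internal ribosome entry sites, fell by 0.20 on the log2 scale, Rps9 by 0.17 and Rpl7a by 0.16 (limma adjusted p = 0.0185, 0.0202 and 0.0106). Both Rps25 and Rps9 overlapped between stages and Rpl7a did not. The remaining 11 fell by 0.10 to 0.13 and include Rpsa, Rpl27, Rpl19, Rpl37a and Rpl22.

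The count in control lenses was 8 without E17.5 replicate 12, 9 without P0 replicate 7, and 10 without P0 replicate 1, 5 or 6 or E17.5 replicate 15. These fits called 20.8% to 23.3% of all tested genes lower. The count was 7 after quantile normalisation, which called 20.4% of all genes lower and 16.4% higher. It was 4 with all 20 arrays in the fit, which called 12.3% of all genes lower. With the retina covariate, which called 21.8% of all genes lower, it was 8, none of them higher. Other fits raised the count, to 19 after median centring and to 23 with a variance trend and robust moderation. Those 2 fits called 26.8% and 25.2% of all genes lower. Retina markers fell at the same time, 6 of 14 called lower with a median of -0.749, as did 3 of 9 macrophage markers and both red blood cell markers tested, with a median of -1.569. Lens markers rose in 9 of 16, with a median of 0.146. Their part in the members' fall was not tested further. Among single probe sets 27 were lower and 2 higher, where 34.5% of all probe sets were called, 21.4% lower and 13.1% higher. Rps18 had probe sets called in opposite directions: the brightest fell by 0.13 on the log2 scale, and one with a mean signal of 5.83 rose by 0.16 (limma adjusted p = 0.0247 each).

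In TKO lenses 2 members were lower at P0 than at E17.5 and 0 were higher, where 14.6% of all tested genes were called, 8.77% lower and 5.8% higher (5.78% and 7.57% after quantile normalisation, 11% and 3.13% after median centring). Rpl12 read 5.68, 6.04, 6.23, 6.12 and 6.41 at P0, against 7.52, 6.83, 7.35, 7.61 and 7.12 at E17.5. All P0 values were below all E17.5 values, and the difference was -1.19 ± 0.17 (SE, n = 5 each, limma adjusted p = 0.00513), or 0.438 of the E17.5 level. Rpl14 fell by 0.31 on the log2 scale with overlapping stages (limma adjusted p = 0.0481), and lost the call in 9 of 10 fits that leave out an array, all but the one without E17.5 replicate 28. The count was then 1, Rpl12. The members' median was -0.058, against -0.026 over all tested genes, and 29 of the 41 were below 0. Of the members 3 were lower without overlap, against 7.02%, and 0 were higher, against 4.73%.

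The TKO effect on no member was found to depend on stage. Of 41 members 0 were called higher and 0 lower for the difference between the TKO effects at P0 and at E17.5. Of all tested genes 0.177% were called, 0.0337% higher and 0.143% lower. An unadjusted p below 0.05 was found for 0 members and for 1866 of the 11859 tested genes. Without TKO E17.5 replicate 28, 7 members had an unadjusted p below 0.05, as did 2877 of the 11859 tested genes, and still 0 members were called. Rpl12 had the lowest p, with TKO lenses at 6.10 and controls at 6.31 on average at P0, and 7.29 in TKO against 7.07 in control lenses at E17.5. Its difference of effects was -0.43 ± 0.21 (limma adjusted p = 0.327), and the 95% interval ran from -0.87 to 0.01. Rps3 and Rps2 gave 0.12 each (limma adjusted p = 0.379 and 0.438). For Rpl14 the difference of effects was 0.00, with an interval from -0.22 to 0.23. The comparisons of the 2 genotypes and of the 2 stages share arrays, so their values for a gene are not independent.

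The 2 largest of the other lists had genes called higher and none lower in TKO lenses at P0. Of all tested genes 20.2% were called higher and 19.4% lower. No difference between lists was tested, and most members read near the top of the arrays. Of 73 mitochondrial ribosomal protein genes 49 were higher in TKO than in control lenses and 0 lower (67.1% called), with a median difference of 0.241. Mrpl50 and Mrpl22 led the list at 0.66 ± 0.07 and 0.57 ± 0.06 (limma adjusted p = 0.000159 and 0.000166). Of 49 ribosome assembly factors 17 were higher and 0 lower (34.7% called), with a median of 0.126. Nhp2, a protein of the snoRNPs that guide pseudouridylation, differed by 0.55 and Nip7, a 60S assembly factor, by 0.47 (limma adjusted p = 0.00026 and 0.000275). Medians of both lists kept their sign after quantile normalisation and after median centring, and in each of these fits 1 mitochondrial ribosomal protein gene was called lower. With the retina marker mean as a covariate, in the fit that called 345 of all genes, 9 mitochondrial ribosomal proteins and 2 assembly factors were called higher. The list medians were then 0.301 and 0.206, and the genotypes do not overlap in that covariate at P0.

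Against the same shares of all genes, calls in most remaining lists ran both ways at P0. Among 28 translation initiation factors 3 were higher and 3 lower, among 13 genes of RNA polymerase I and its factors 2 were higher and 2 lower, and among 9 elongation and termination factors 0 were higher and 1 lower. Other mRNAs with a TOP start, 16 genes, gave 2 higher and 3 lower. Without overlap, 13.2% of all tested genes lay higher in TKO lenses. The 6 ribosomal proteins and paralogs outside the rule all lay higher in TKO lenses without overlap, with a median of 0.32. Of these 4 were called higher and 0 lower, among them Rps27l, a p53 target, at 0.48 and Rpl7l1 at 0.38 (limma adjusted p = 0.000938 and 0.00178). Of 14 regulators of ribosomal protein synthesis 3 were higher and 5 lower. Mtor, the kinase that controls TOP mRNA translation, and its partner Rptor differed by -0.41 and -0.33. Rheb, the activator of mTOR, and Myc, which drives ribosomal genes, differed by 0.25 and 0.38 (limma adjusted p = 0.001, 0.000799, 0.00244 and 0.00996).

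Towards birth in control lenses 38 of 49 assembly factors were lower at P0 than at E17.5 and 0 higher, with a median of -0.263. Of all tested genes 24.9% were called lower and 12.5% higher. Gar1, a snoRNP protein, differed by -0.64 and Nop16 by -0.42 (limma adjusted p = 0.00015 and 0.000138). Of the 73 mitochondrial ribosomal proteins 46 were lower and 3 higher, with a median of -0.194. Of the 14 regulators of ribosomal protein synthesis 2 were higher and 4 lower, with 7 differences above and 7 below 0 and a median of -0.019. Among them Eif4ebp1, a translation repressor that mTOR inactivates, fell by 0.92 on the log2 scale and Myc by 0.58. Maf1, a repressor of RNA polymerase III, rose by 0.37. In TKO lenses 13 of 49 assembly factors were lower and 0 higher at P0 than at E17.5, and 2 of 73 mitochondrial ribosomal proteins were lower and 2 higher. Of all tested genes 8.77% were lower and 5.8% higher. Between genotypes at E17.5 each of these 2 lists had 1 gene called higher in TKO lenses and 0 lower, against 1.59% and 1.31% of all tested genes. These were Mrpl50 at 0.62 and Ftsj3, an assembly factor, at 0.46.

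**Figure D4:**
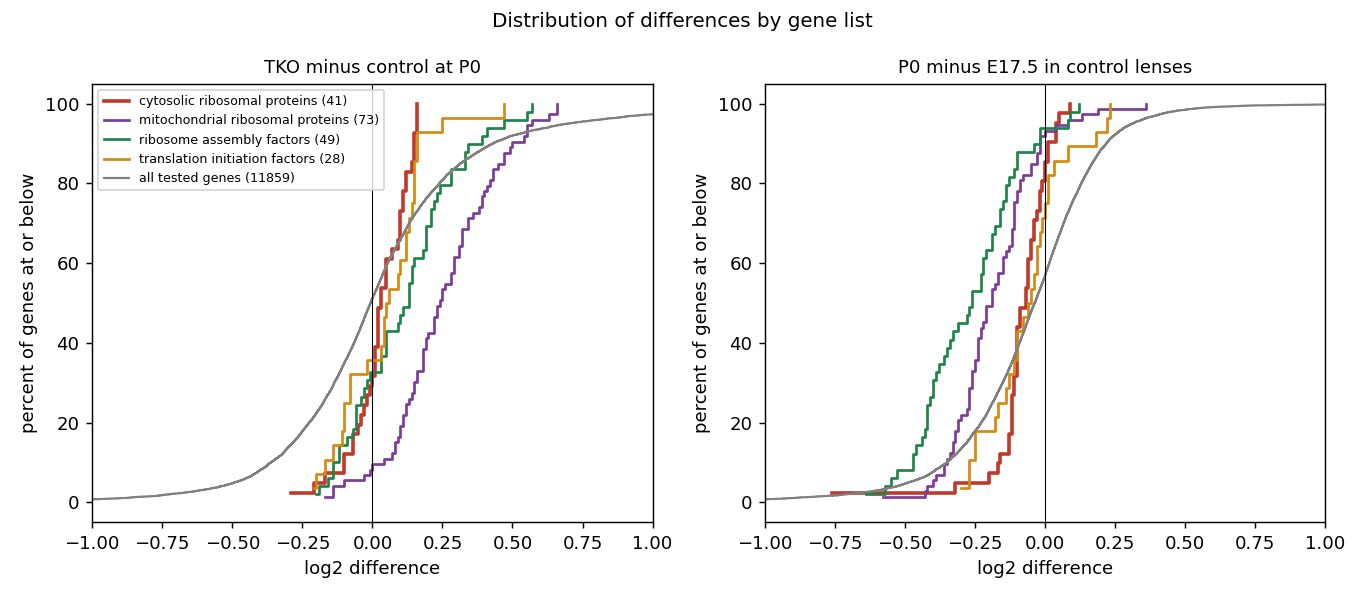
Share of genes at or below each log2 difference, for TKO minus control at P0 (left) and P0 minus E17.5 in control lenses (right), by gene list with the number of tested genes in brackets. The cytosolic ribosomal proteins form a steep curve close to 0, the mitochondrial ribosomal proteins lie to the right at P0 in TKO lenses, and the assembly factors lie to the left in control lenses.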

How the data were processed

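The deposited series table holds the authors' log2 expression values of 45101 probe sets on 20 arrays; no label or file header names the steps that made them. The values were used as deposited. Probe sets were named from the platform annotation: 34945 have 1 gene, 932 several and 9160 none. Of those with 1 gene, 34741 took the symbol that RefSeq gives for their gene number, whether or not it differed. A gene was tested where its probe set exceeded the array median (the 50th percentile) on 5 or more of the 20 arrays, so 11859 genes entered the tests. The test was that of limma 3.58.1 in R 4.3.3 (two-sided, Benjamini-Hochberg over all tested genes, called at an adjusted p below 0.05) in the 10 arrays of the 2 groups compared, with 8 residual degrees of freedom. The difference of effects used all 20 arrays. This fit was chosen because the TKO E17.5 arrays vary more than the others. Members, gene lists and tests were chosen with earlier results of these data known. Named are members with the largest called differences (up to 8 per direction, 5 for stages), those of smallest p where few were called, the 4 brightest and 4 dimmest, and those with set roles; of other lists, up to 2 risen and 2 fallen by adjusted p. Nothing in the labels says that mice are from separate litters, so p-values measure only the spread between these samples. The number of arrays limits the precision. Alternatives were other normalisations, filters, probe set choices, fits, covariates and leaving out each array.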

Additional observations from a re-analysis of the deposited data

Results flagged for a closer look

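In 8 of 104 sets of values, 1 array lay far from the other 4, by a gap that filled more than 0.71 of the set's range. A set holds the 5 values of 1 named gene, or of the member median, in 1 group. Chance alone flags about 1 set in 20, but the sets share the same 20 arrays and are not independent. Of the 8 flagged values 4 belonged to TKO E17.5 replicate 28. There Rpl22 read 13.33, with the next array at 13.16, and Rps28 read 13.84, with the next at 13.73. On the same array Rps2 read 13.38 and Rplp2 13.06, below the next arrays at 13.61 and 13.39. Control E17.5 replicate 11 was far from its group for Rpl14 (8.48, next 8.70) and for Rps3 (13.53, next 13.48). The other flagged values were Rps6 on TKO P0 replicate 18 (9.75, next 10.07) and Rps14 on control P0 replicate 6 (13.54, next 13.60). Without TKO E17.5 replicate 28 the E17.5 differences of Rplp2 and Rps19, which did not pass the test, turned sign to 0.02 and -0.02.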

How the results depend on the processing

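No paired analysis was possible because the replicate numbers differ in every group. At E17.5 the count of members called was 1 with all 20 arrays in the fit and 1 with the Gapdh covariate, which also moved the median to 0.330; the genotypes do not overlap in that covariate. The E17.5 median was -0.005 after quantile normalisation, 0.009 with the mean of a gene's probe sets, 0.107 without suffixed probe sets (20 members left), and -0.001 to 0.037 when 1 array was left out. At P0 the count of 9 became 5 after median centring, 5 with no filter and 3 with the mean of probe sets. It was 4 of the 20 members left without suffixed probe sets, and 14 with a variance trend and robust moderation. These fits called 25.3% (no filter) to 40.4% (variance trend) of all genes. The count was 0 with the retina covariate, which called 2.91% of all genes, and with the Gapdh covariate. The genotypes overlap in neither covariate at P0. The Gapdh covariate called 0 of all genes (1420 at an unadjusted p below 0.05). Leaving out 1 array gave 2 to 8, in fits that called 31% to 42.8% of all genes. The P0 median was -0.059 without suffixed probe sets and -0.007 with the Gapdh covariate. In TKO lenses the stage count of 2 became 1 after quantile normalisation, median centring or a stricter filter (5.78%, 11% and 9.42% of all genes lower). It was 4 with the mean of probe sets or the variance trend (8.15% and 8.66% lower). Without suffixed probe sets it was 6 of the 20 members left (8.77% lower). It was 6 of 41 with all 20 arrays (18.9% lower), and 6 with every probe set alone, 5 lower and 1 higher (8.64% and 4.68% of all probe sets). With 1 array left out it was 1 to 2 (2.62% to 14% lower). The TKO stage median was -0.022, -0.105 and -0.143 after quantile normalisation, median centring and without suffixed probe sets, and -0.062 to -0.032 with 1 array left out. In control lenses the count of 16 became 7 after quantile normalisation, 8 with no filter, 4 with all 20 arrays and 8 with the retina covariate. With 1 array left out it was 8 to 18. These fits called 12.3% (all 20 arrays) to 24.8% (without E17.5 replicate 10) of all genes lower. The control count was 11 with the Gapdh covariate (21.6% of all genes lower). It was 19 after median centring, with a stricter filter or with array weights (26.8%, 32.3% and 25.6% lower). With a variance trend and robust moderation it was 23 (25.2% lower). The control stage median was -0.047 after quantile normalisation and -0.121 without suffixed probe sets. The median difference of effects was -0.013 after median centring, -0.036 without suffixed probe sets and -0.001 to 0.041 with 1 array left out.

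Single members that turned sign under other settings were not called there. With the Gapdh covariate Rpsa was 0.27, Rps6 0.58 and Rpl11 0.12 at E17.5, and Rps9 was -0.12, Rplp2 -0.08 and Rpl11 -0.10 at P0. With the retina covariate Rpl11 was 0.01 at E17.5 and -0.02 at P0, and Rps19 0.02 at P0. Rplp2 at P0 was -0.04 after quantile normalisation and -0.01 after centring. Rps3 at P0 was 0.00 with the mean of probe sets and -0.09 without suffixed ones, where Rps9 was -0.17 and the difference of effects of Rps3 was -0.24. Rps9 in control lenses was 0.07 with the mean of probe sets. With 1 array left out Rpl11 ranged from -0.03 to 0.01, Rplp2 from -0.10 to 0.02 and Rps19 from -0.02 to 0.10 at E17.5, and at P0 Rplp2 from 0.00 to 0.03 and Rps19 from -0.01 to 0.00. Of the single-member values 613 kept their direction and call, 88 lost the call, 3 gained it and 24 turned sign. Rpsa at P0 gained it after quantile normalisation and with the variance trend. Rpl12 in both genotypes, and Rpl14 and Rpl7a in control lenses, were called lower at P0 than at E17.5 in every setting that could be run. Each of these genes has 1 single-gene probe set, so no second probe set could be compared. Over all genes, 343 were called at E17.5, 580 after quantile normalisation, 197 after centring, 1541 with all 20 arrays, 713 with array weights, 89 with the retina covariate, 1248 with the Gapdh covariate and 49 to 1129 with 1 array left out. At P0 4700 were called and 345 with the retina covariate. Between stages 1728 were called in TKO and 4431 in control lenses, 3940 and 2046 with all 20 arrays, and in TKO lenses 2644 with no filter, 884 with a stricter one and 440 to 2716 with 1 array left out. For the difference of effects 21 were called, 0 with array weights (1744 at an unadjusted p below 0.05), 1 with the retina covariate and 0 to 321 with 1 array left out. The causes were not tested.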
